A study of Mus musculus with 24 samples.

Results

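The voltage-gated and potassium channel genes of the mouse retina were compared between the 8 founder strains of the Collaborative Cross. The members were the protein-coding rows whose symbol begins with Kcn, Cacna, Cacnb, Cacng or Hcn, together with the numbered Scn genes that end in a or b. The 4 genes Kcnj10, Cacna1f, Cacna2d4 and Cacnb2 were left out by name. The rule gave 129 of the 28802 genes of the table. Of these, 100 had a mean of at least 0.5 cpm over the libraries and were tested among 16400 genes, and 29 were below that limit. The rule used symbols and the protein-coding mark and no measured value, although members were chosen with earlier results of these data known.

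RNA was sequenced from the whole retina of wild-type mice of the inbred strains 129S1/Svlmj, A/J, C57BL/6J, NOD/ShiLtJ and NZO/HlLtJ and of the wild-derived inbred strains CAST/EiJ, PWK/PhJ and WSB/EiJ at postnatal day 28. Each strain had 3 libraries, 24 in all, and no group carried a transgene or received a treatment. Values are deposited as cpm, counts scaled by the total read count of the library. Over the genes of the table they summed to 332472 to 366570 cpm per library. The retinal markers of ganglion cells (Pou4f1, Rbpms, Nefl and Sncg) summed to 113 to 199 cpm over the libraries. Reads per library, inferred from the step between low values, ranged from 57607005 to 78150032. In 3 libraries (129S1/Svlmj replicate 2, C57BL/6J replicate 2 and NOD/ShiLtJ replicate 2) 3 lens genes summed to 1100, 141 and 1200 cpm, against at most 57 elsewhere. Xist and the Y-linked Ddx3y summed to 906 to 1080 cpm in 4 libraries (129S1/Svlmj replicate 3, C57BL/6J replicate 3, PWK/PhJ replicate 2 and CAST/EiJ replicate 3) and to 25 to 44.1 cpm in the others, and the sex of the mice is not in the sources used here.

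Ion channels set the membrane potential of retinal neurons and shape how light signals are filtered in time. Potassium channels of the Kv group open on depolarization. Inward rectifiers and two-pore-domain channels hold the resting potential, and calcium-activated channels couple calcium entry to potassium exit. Hcn channels carry an inward current on hyperpolarization and speed the response of photoreceptors and bipolar cells. Voltage-gated calcium channels drive transmitter release, and voltage-gated sodium channels carry the action potentials of ganglion cells and some amacrine cells. In photoreceptors, the silent subunit Kcnv2 (Kv8.2) joins a Kv2 pore, and defects of human KCNV2 cause a cone dystrophy.

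Levels between genes were compared per kilobase of merged GENCODE exon. Kcnj14, an inward rectifier (Kir2.4), stood at 44.0 ± 10.3 cpm per kb (SD over the 24 libraries) and Kcnv2 at 42 ± 3.5 cpm per kb. Over the pooled libraries these means lay within their spread, which includes the differences between strains. The order changed by strain. Kcnj14 was below Kcnv2 in NOD/ShiLtJ (29.0 against 46.9 cpm per kb) and above it in CAST/EiJ (60.5 against 37.3 cpm per kb). Kcnma1, the pore of the large-conductance calcium-activated channel, stood at 11.3 ± 1.62 cpm per kb, below both. Among the sodium channel pores, the highest was Scn1a at 4.28 ± 0.31 cpm per kb. Among the genes below the limit were Kcnq1, Kcnj1 and Scn11a, channels known from heart, kidney and sensory neurons, none of which exceeded 0.489 cpm in any library.

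Most channel genes differed between strains, as did most genes of the retina. By limma's F-test over the 8 strain means on log2(cpm + 1), 98 of the 100 tested members passed a Storey q-value of 0.01, against 97.2% of all genes tested. With so many genes differing, the Storey q lies far under the p, and Kcnh1 passed with an unadjusted limma p of 0.29 (q = 0.00638). With Benjamini-Hochberg adjustment the count was 76, against 70.6% of all genes. The pair that did not pass was Hcn2 (q = 0.015) and Kcnk4 (q = 0.0115), and these and Kcnh1 were picked with their values in view. The size of the differences was modest. The highest strain mean exceeded the lowest by a median of 0.51 on the log2 scale (1.43-fold) over the channel genes, and by 0.43 (1.34-fold) over all genes tested. In 7 channel genes the strain means lay 2-fold or more apart with q under 0.01, which is 7% of the members against 11.6% of all genes. Those genes were Kcnmb3, Scn4a, Cacna1i, Kcnd2, Cacna1h, Kcnj14 and Kcnj13. CAST/EiJ had the lowest mean of the 8 strains for 33 of the 100 members (22.6% of all genes), and PWK/PhJ the highest for 28 (22.1% of all genes). NZO/HlLtJ was lowest for 19 members (9.65% of all genes). WSB/EiJ was lowest for 6 (18.9% of all genes) and highest for 16 (8.85% of all genes). In these comparisons the member counts rank means of cpm, and the shares of all genes rank means of log2(cpm + 1).

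The families were set side by side by the median difference of their tested members, each strain against the mean of the other 7. In CAST/EiJ the median was below 0 in 13 of the 15 families, with sodium channel beta subunits at -0.25 and inward rectifiers at -0.23. The exceptions were Kv7 and the small Kv partners. Over all 100 members it was -0.13 in CAST/EiJ, where the median of all genes was -0.03. PWK/PhJ had the widest positive family median, 0.29 for the calcium channel pores, beside 0.02 for all genes. WSB/EiJ stood at 0.22 for sodium channel beta subunits and at 0.20 for the calcium pores. These medians are descriptions and were not tested. Reads of all strains were aligned to GRCm38/mm10, and the part of sequence differences from that reference in the counts was not tested. The families with the widest ranges between strains were the small Kv partners (median 0.81 over 9 genes) and the calcium channel alpha2delta subunits (0.71 over 3 genes), and the narrowest was Kv1 (0.36 over 6 genes, none above 0.47).

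**Figure D1:**
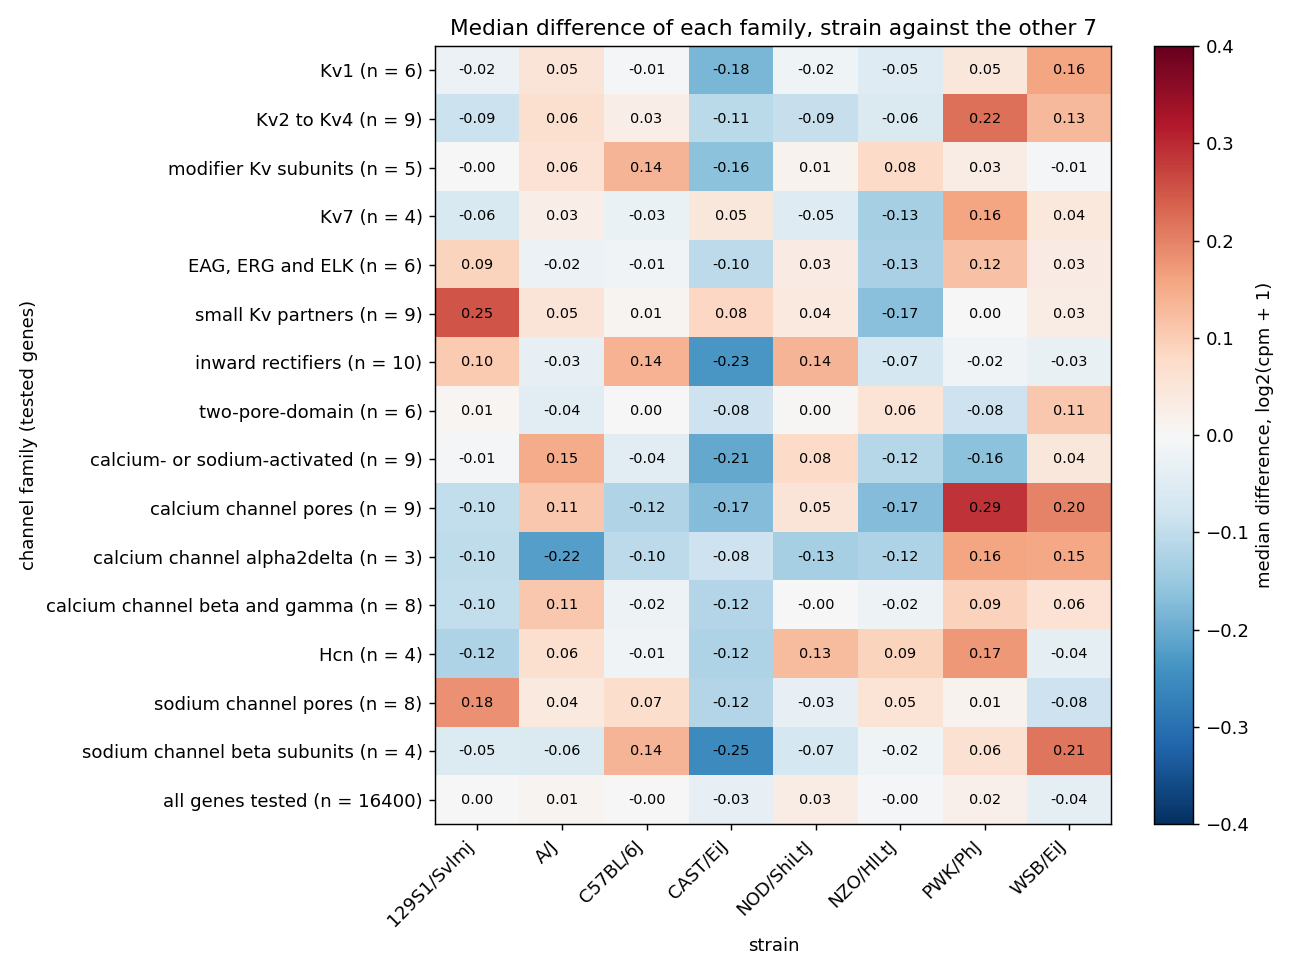
Median difference on log2(cpm + 1) of the tested genes of each channel family (rows, n genes in brackets) in each strain (columns) against the mean of the other 7 strains, with all genes tested in the bottom row. The CAST/EiJ column is negative except for Kv7 and the small Kv partners, and PWK/PhJ reaches 0.29 for the calcium channel pores.

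**Figure D2:**
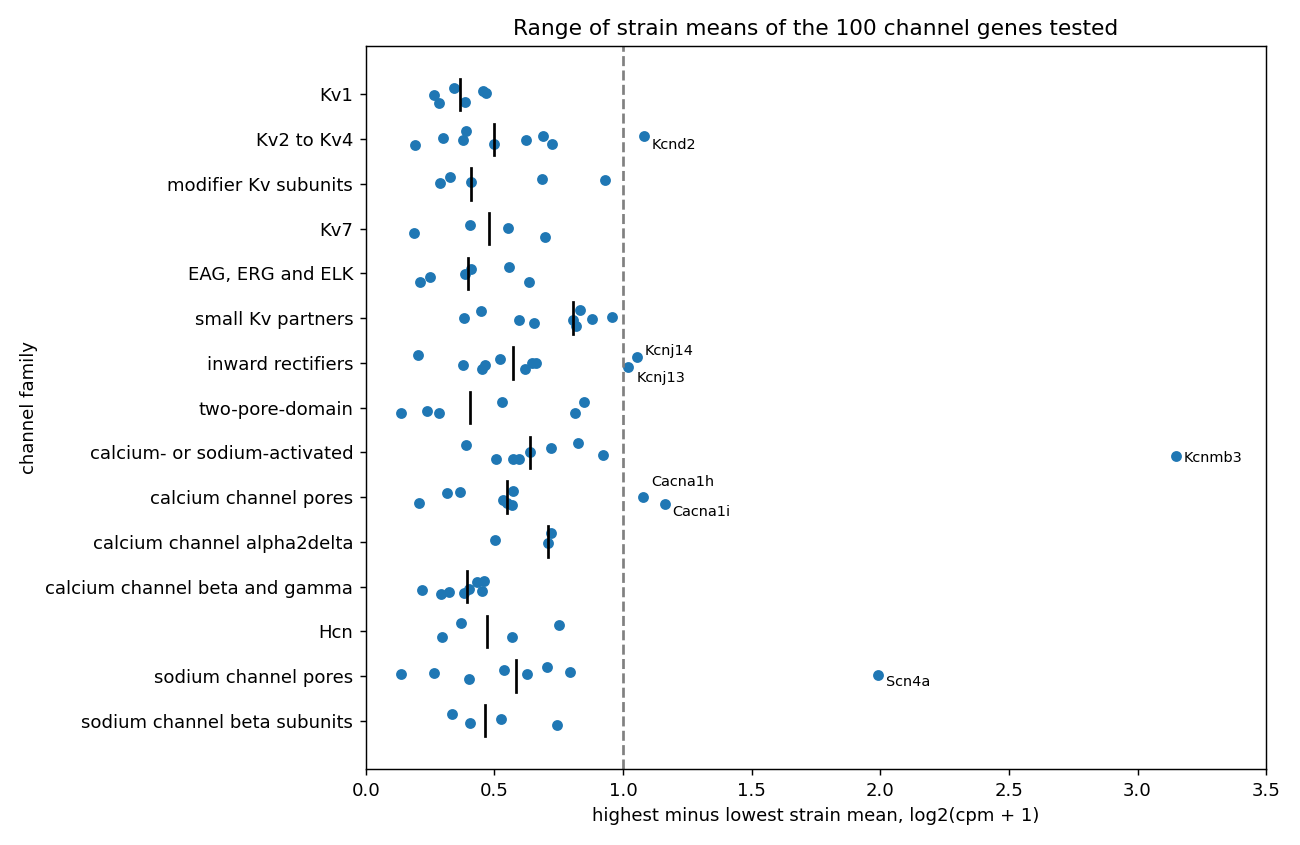
Highest minus lowest strain mean on log2(cpm + 1) for each of the 100 channel genes tested (points), by family, with the family median as a black line and the 2-fold limit dashed. The 7 named genes lie past the limit, Kcnmb3 at 3.15 and Scn4a at 1.99, and the Kv1 genes lie lowest as a family.

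Called in a single strain were genes with q under 0.01 and at least 1.5-fold from the mean of the other 7. In all, 12 of the 100 members were called in some strain (12%), against 16.2% of all genes. In CAST/EiJ, 2 members were called higher (background 3.05% of all genes) and 5 lower (4.62%). Of those called higher, Kcnmb3 passed the mean limit of 0.5 cpm only through CAST/EiJ. In PWK/PhJ, no member was higher (3.59%) and 3 were lower (3.96%). In NZO/HlLtJ, no member was higher (1.36%) and 2 were lower (1.52%), and in NOD/ShiLtJ none was higher (1.82%) and 1 was lower (1.23%). A/J had 1 higher (1.43%) and none lower (1.37%), and C57BL/6J had 1 higher (1.86%) and none lower (1.16%). In 129S1/Svlmj limma called no member higher (1.55%) or lower (1.21%), with 48 members (42.4% of all genes) at an unadjusted p under 0.05. In WSB/EiJ it likewise called none higher (1.68%) or lower (2.04%), with 44 members (47% of all genes) at an unadjusted p under 0.05. These shares lie near their backgrounds.

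Kcnmb3 encodes a beta subunit of the large-conductance calcium-activated channel, a protein that alters the gating of the Kcnma1 pore. It lies on the minus strand of chr3:32471588-32492231 (GRCm38). The 3 CAST/EiJ libraries held 6.30, 8.53 and 9.03 cpm, or 460 to 692 reads. The other 21 libraries held 3 reads together, 1 in each of 3 libraries, and 18 libraries held none. In the 4 strains with no read in any library (129S1/Svlmj, C57BL/6J, NOD/ShiLtJ and PWK/PhJ), the CAST/EiJ mean of 7.95 ± 1.45 cpm (SD, n = 3) was at least 155-fold higher than the floor of 3 reads per library. The groups did not overlap. Limma gave q = 3.79e-23, but Kcnmb3 passed the mean limit of 0.5 cpm only through its CAST/EiJ libraries. That q is therefore no separate support. No exon of Kcnmb3 overlaps an exon of another gene in GENCODE M21. Its partner Kcnma1 went the other way in CAST/EiJ, with 152, 156 and 159 cpm (155.9 ± 3.53) against a mean of 196 cpm in the other strains. That difference of -0.32 ± 0.04 (log2, SE, q = 8.48e-08) was under the 1.5-fold limit, although every CAST/EiJ library lay below every other.

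Kcnma1 itself was highest in NOD/ShiLtJ, at 231, 238 and 241 cpm, and in NZO/HlLtJ, at 229, 228 and 228 cpm. The NOD/ShiLtJ libraries lay above all others, with a difference of 0.36 ± 0.04 (q = 5.59e-08) that did not reach 1.5-fold. With 86.7% of its family's cpm, Kcnma1 carried the sum of the calcium- or sodium-activated genes from 191.6 ± 3.08 cpm in CAST/EiJ to 268.6 ± 4.26 cpm in NOD/ShiLtJ. Without it the order changed, with CAST/EiJ highest at 35.7 ± 1.81 cpm and PWK/PhJ lowest at 21.7 ± 0.74 cpm. That CAST/EiJ sum includes a mean of 7.95 cpm of Kcnmb3, which was near 0 in the other strains. The median difference of the 9 tested genes of the family, Kcnma1 and Kcnmb3 among them, was -0.21 in CAST/EiJ. Kcnt1, a sodium-activated potassium channel, was called lower in NZO/HlLtJ, where the libraries held 4.61, 4.20 and 5.13 cpm. The mean of the other strains was 8.43 cpm, and the difference was -0.72 ± 0.10 (q = 1.56e-06). The PWK/PhJ libraries, at 5.00, 5.59 and 5.92 cpm, overlapped those of NZO/HlLtJ and lay below the rest.

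Scn4a, the sodium channel pore best known from skeletal muscle, had the second widest range. PWK/PhJ held 1.21, 0.904 and 1.06 cpm, NZO/HlLtJ 1.95, 2.11 and 2.37 cpm and NOD/ShiLtJ 3.61, 2.46 and 3.31 cpm. At the other end, C57BL/6J held 5.37, 6.58 and 4.98 cpm and CAST/EiJ 8.50, 7.05 and 6.15 cpm. The PWK/PhJ libraries lay below all others, while CAST/EiJ and C57BL/6J overlapped each other. Scn4a was lower in PWK/PhJ, with a difference of -1.34 ± 0.09 (log2, SE, q = 2.42e-12), and in NZO/HlLtJ, with -0.64 ± 0.09 (q = 1.64e-06), and higher in CAST/EiJ by 0.94 ± 0.09 (q = 1.09e-09). The call in C57BL/6J, 0.59 ± 0.09 (q = 5.97e-06), lay just past the 1.5-fold limit and was lost in 8 of the 24 fits that each left out 1 library, and in the fit without the 3 lens-rich libraries. The 3 muscle markers summed to 0.466 to 2.54 cpm in all libraries, with 0.466 to 0.75 cpm in CAST/EiJ and 1.02 to 1.43 cpm in PWK/PhJ, and their part in the differences was not tested.

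Among the other sodium channel pores, Scn8a (Nav1.6), the channel of mature axon initial segments, was highest in WSB/EiJ, at 64.7, 65.5 and 67.4 cpm. These libraries lay above all others, with a difference of 0.44 ± 0.07 (q = 4.35e-06), below the 1.5-fold limit. Scn1a (Nav1.1) ran from a strain mean in A/J to one in C57BL/6J only 1.21-fold higher, and Scn2a (Nav1.2) had the narrowest range of the family, 0.14 on the log2 scale. Scn1a, Scn2a, Scn3a, Scn7a and Scn9a lie together on chromosome 2, yet their highest strains were C57BL/6J, NZO/HlLtJ, 129S1/Svlmj, PWK/PhJ and C57BL/6J. Several of these genes share exact runs of sequence, so reads could be divided between them in the counting. Scn2b, the beta2 subunit that joins pores by a disulfide bond, was lower in CAST/EiJ, at 13.8, 13.7 and 11.8 cpm, and all other libraries held at least 15.1 cpm. The difference was -0.62 ± 0.06 (q = 1.09e-09), and the call was lost without CAST/EiJ replicate 3 (-0.55) and without the 4 Xist-rich libraries (-0.54).

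**Figure D3:**
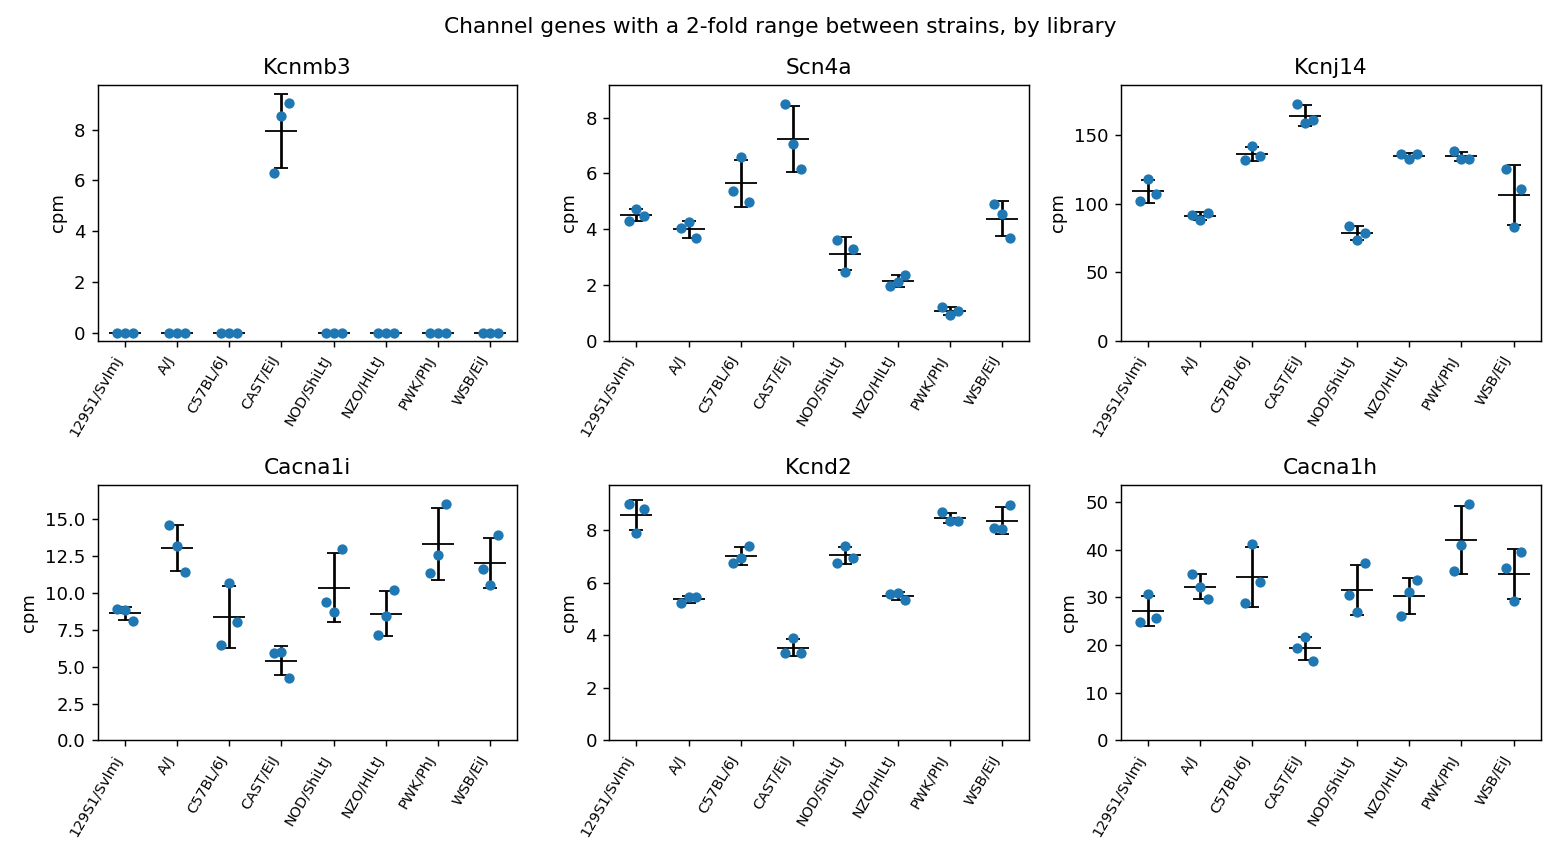
Channel genes with a 2-fold range of strain means (Kcnj13 not drawn), as cpm in each library (points, 3 per strain), with the strain mean (bar) and SD (whiskers). Kcnmb3 is seen in CAST/EiJ and near 0 elsewhere, Scn4a is lowest in PWK/PhJ and highest in CAST/EiJ, Kcnj14 is highest in CAST/EiJ, and Cacna1i, Kcnd2 and Cacna1h are lowest there.

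Both T-type calcium channel pores past the 2-fold range were lowest in CAST/EiJ. T-type channels open near the resting potential and are known from bipolar cells and some ganglion cells. Cacna1i (Cav3.3) held 5.92, 6.00 and 4.26 cpm in CAST/EiJ and 11.3, 12.6 and 16.1 cpm in PWK/PhJ. Cacna1h (Cav3.2), named after its values were seen, held 19.4, 21.7 and 16.7 cpm in CAST/EiJ and 35.4, 40.9 and 49.6 cpm in PWK/PhJ. In both genes the CAST/EiJ libraries lay below all others. The differences in CAST/EiJ were -0.84 ± 0.12 (q = 1.3e-06) for Cacna1i and -0.74 ± 0.11 (q = 1.31e-06) for Cacna1h. Cacna1g, the remaining T-type gene, was not called in any strain, and Cacna1g and Cacna1i share an exact run of sequence. Cacna1d (Cav1.3), an L-type pore, ran from 27.6 to 34.8 cpm over all libraries. The family sum was 120.8 ± 14.1 cpm in CAST/EiJ and 167.7 ± 17.2 cpm in PWK/PhJ. Among the alpha2delta subunits, Cacna2d1, also named after its values were seen, was higher in CAST/EiJ than in every library of the other strains (49.0 ± 1.20 cpm against 38.4), by 0.35 ± 0.03 (q = 8.24e-10), below the 1.5-fold limit. No beta or gamma subunit reached a range of 0.46 or more.

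Kcnd2 (Kv4.2), a pore of the A-type current that opens and inactivates fast, was lowest in CAST/EiJ, at 3.33, 3.89 and 3.34 cpm. The libraries of A/J (5.22, 5.44 and 5.46 cpm) and NZO/HlLtJ (5.58, 5.59 and 5.33 cpm) came next. The highest were 129S1/Svlmj, PWK/PhJ and WSB/EiJ, with 7.9 to 9 cpm. The CAST/EiJ libraries lay below all others, and the difference in CAST/EiJ was -0.84 ± 0.05 (q = 1.25e-13). Kcng4 (Kv6.4), a silent subunit that joins Kv2 pores and is used as a marker of alpha ganglion cells, was also lowest in CAST/EiJ, at 3.56, 3.36 and 3.96 cpm, where all other libraries held at least 5.65 cpm. The difference was -0.78 ± 0.07 (q = 8.09e-10). The 4 ganglion cell markers summed to 113 to 114 cpm in CAST/EiJ and to 128 to 199 cpm in the other strains, and the 4 cone markers to 133 to 144 cpm against 164 to 271. The single markers did not fall together. By strain mean, Nefl (91 cpm), Rbpms (4.83 cpm), Sncg (14.3 cpm) and Opn1sw (60.2 cpm) were lowest in CAST/EiJ. Pou4f1 (3.25 cpm), Arr3 (27.7 cpm), Opn1mw (15.1 cpm) and Gnat2 (35.7 cpm) were lower in some other strain. The part of these cell types in the 5 lower calls was not tested, and in bulk retina fewer cells of a type and less RNA per cell cannot be told apart. The part of read alignment to GRCm38/mm10 in these calls was not tested either.

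The sequence upstream of the start is shown for 3 of the 5 genes called lower in CAST/EiJ, as 250 bases from RefSeq (GRCm38.p6). The window of Scn2b holds 94 exon bases of the gene and is not shown, and Cacna1h had no entry. It is the reference sequence, not that of CAST/EiJ. Capitals mark GGGCGG, the GC box, searched on both strands together with TAATCC, the core bound by Crx and Otx factors, and TATAAA, the TATA box, none of which overlap here.
Kcnd2, chr6:21215096-21215345, plus strand: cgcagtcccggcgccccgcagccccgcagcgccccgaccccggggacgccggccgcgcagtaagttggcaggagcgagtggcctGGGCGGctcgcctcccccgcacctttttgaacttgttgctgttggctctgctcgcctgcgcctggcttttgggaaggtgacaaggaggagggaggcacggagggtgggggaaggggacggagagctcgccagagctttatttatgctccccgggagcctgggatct
Kcng4, chr8:119635681-119635930, minus strand: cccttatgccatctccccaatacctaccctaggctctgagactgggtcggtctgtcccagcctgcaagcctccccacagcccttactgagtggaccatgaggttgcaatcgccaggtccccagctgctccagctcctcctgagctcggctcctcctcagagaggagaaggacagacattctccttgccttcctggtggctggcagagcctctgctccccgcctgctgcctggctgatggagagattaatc
Cacna1i, chr15:80286988-80287237, plus strand: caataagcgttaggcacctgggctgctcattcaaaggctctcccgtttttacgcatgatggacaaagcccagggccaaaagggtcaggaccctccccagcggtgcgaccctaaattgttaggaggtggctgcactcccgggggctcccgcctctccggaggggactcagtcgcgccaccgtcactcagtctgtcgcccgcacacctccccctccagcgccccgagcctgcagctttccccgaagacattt
Only the Kcnd2 window held a match, 1 GC box. Over all 32851 windows, 32.7% held the GC box, 6.25% TAATCC and 12.4% TATAAA, and over the 128 windows of the 93 channel genes with an entry the shares were 43.0%, 3.91% and 3.91%.

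Kcnj14 had the widest range of the abundant channels. NOD/ShiLtJ held 84.0, 73.5 and 78.8 cpm and A/J 91.9, 87.8 and 93.1 cpm. CAST/EiJ, at the top, held 173, 159 and 161 cpm, above every other library. Between them, C57BL/6J, NZO/HlLtJ and PWK/PhJ lay together at 132 to 142 cpm, and WSB/EiJ spread from 82.8 to 125 cpm. The difference in NOD/ShiLtJ was -0.64 ± 0.07 (q = 6.58e-08), with 1 WSB/EiJ library inside the NOD/ShiLtJ values. Without the 3 lens-rich libraries it was -0.58 (q = 6.03e-06), just under 1.5-fold. CAST/EiJ differed by 0.57 ± 0.07 (q = 9.7e-08), also just under that limit. Kcnj14 shares an exact run with the pseudogene Gm5522, which held 0.331 to 1.95 cpm. It made up 66.0% of the inward rectifier cpm, and the family sum followed it, from 143.6 ± 7.06 cpm in NOD/ShiLtJ to 215.6 ± 8.80 cpm in CAST/EiJ. Without Kcnj14 the order turned for CAST/EiJ, which was lowest at 51.2 ± 1.61 cpm, with 129S1/Svlmj highest at 66.4 ± 4.81 cpm.

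Kcnj13 (Kir7.1), an inward rectifier of the pigment epithelium, was called higher in A/J on 0.708, 1.65 and 2.63 cpm. NZO/HlLtJ held 0.249, 0.359 and 0.157 cpm, and the A/J values overlapped those of other strains. The difference in A/J was 0.63 ± 0.14 (q = 0.000475), and without A/J replicate 3 it was 0.37 (q = 0.0237). The pigment epithelium markers Rpe65, Ttr, Rgr and Best1 summed to 13.5, 36.5 and 64.8 cpm in the same A/J libraries and to 9.85 to 15.5 cpm in NZO/HlLtJ, although WSB/EiJ, at 43.6 to 72.6 cpm of these markers, held 0.694 to 0.894 cpm of Kcnj13. Best1 was at or near 0 in all strains. The part of this tissue in the call was not tested. Of the exon bases of Kcnj13, 49.1% lie opposite exons of Gigyf2, which held 62.2 to 75.7 cpm, and the use of strand in the counting is not given in the sources used here.

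Kcnv2 stayed between 180 and 246 cpm over all libraries, lowest as a strain in CAST/EiJ and highest in NOD/ShiLtJ. Its strain means spanned 0.33 on the log2 scale, and it was not called in a single strain. With 94.5% of the cpm of the modifier Kv subunits, it carried their sum from 199.5 ± 6.96 cpm in CAST/EiJ to 253.0 ± 8.33 cpm in NOD/ShiLtJ. Kcna2 (Kv1.2), a delayed rectifier of axons, held 46.5, 51.7 and 43.4 cpm in CAST/EiJ and 63.7, 63.2 and 58.7 cpm in A/J. These values did not overlap, and its strain means spanned 0.39 on the log2 scale with no call in a single strain.

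**Figure D4:**
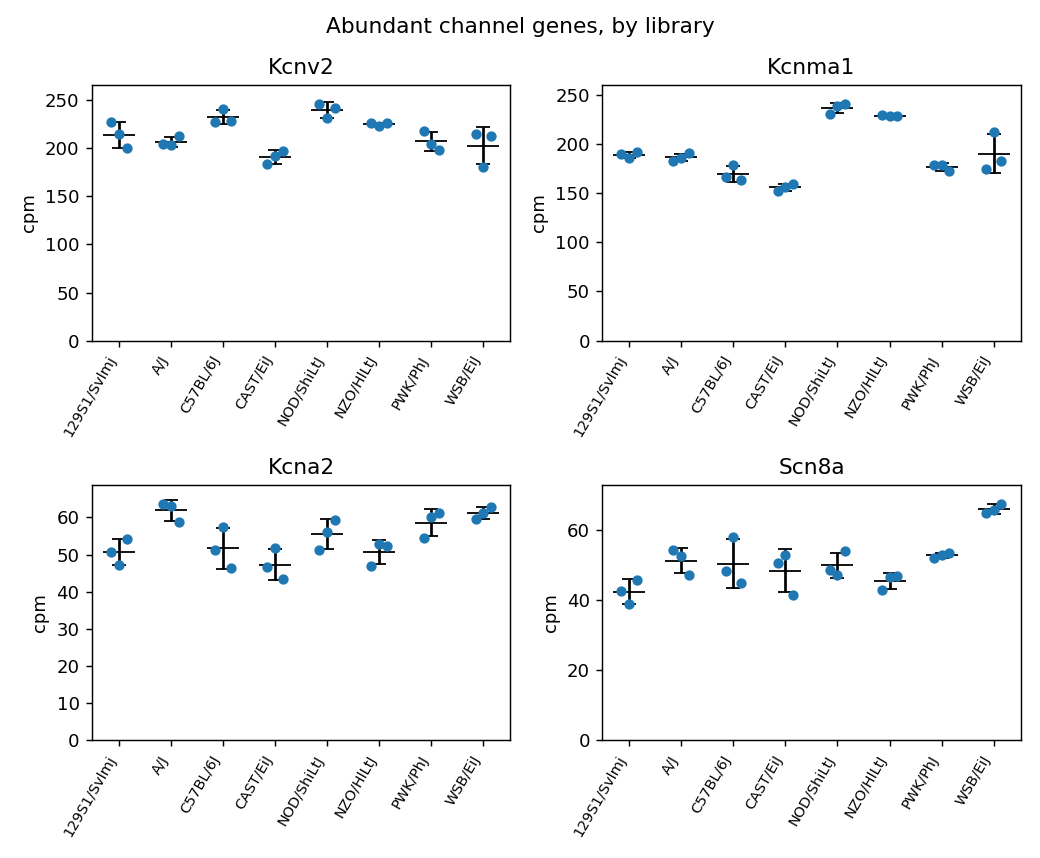
Abundant channel genes of 4 families, as cpm in each library (points, 3 per strain), with the strain mean (bar) and SD (whiskers). Kcnv2 spans 0.33 and Kcna2 0.39 on the log2 scale between strain means, Kcnma1 is highest in NOD/ShiLtJ and NZO/HlLtJ and lowest in CAST/EiJ, and Scn8a is highest in WSB/EiJ.

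The small partners of Kv pores held 2 of the 3 genes called lower in PWK/PhJ. Kcne2, a single-pass subunit that joins Kv pores, held 7.46, 7.22 and 6.08 cpm in PWK/PhJ, where all other libraries held at least 8.53 cpm. The difference was -0.77 ± 0.07 (q = 2.23e-09). Kcnip3 (also known as calsenilin and DREAM), a calcium-binding partner of Kv4 named after its values were seen, held 7.67, 6.91 and 6.71 cpm in PWK/PhJ and at least 8.45 cpm elsewhere, a difference of -0.62 ± 0.06 (q = 4.71e-09) whose call was lost without PWK/PhJ replicate 3. Kcnab2, a cytoplasmic beta subunit of Kv1, followed at 31.1, 29.8 and 34.5 cpm, below all other libraries, and its -0.58 ± 0.07 (q = 1.16e-07) missed the 1.5-fold limit. Kcnab1, another beta subunit, went the opposite way and was higher in PWK/PhJ than in all other libraries by 0.56 ± 0.04 (q = 5.84e-12). Of the remaining potassium channels in PWK/PhJ, Kcnq5 (Kv7.5) was higher by 0.56 ± 0.08 (q = 4.03e-07) and Kcnh6 (an ERG-type pore) by 0.53 ± 0.08 (q = 2.91e-06), each above all other libraries. The two-pore-domain channels Kcnk1 (TWIK-1) and Kcnk3 (TASK-1) were lower, with differences of -0.43 ± 0.05 (q = 3.6e-08) and -0.58 ± 0.09 (q = 4.7e-06). Kcnk3 was also low in CAST/EiJ, whose 2.77, 3.57 and 2.83 cpm overlapped the 2.64, 2.49 and 3.35 cpm of PWK/PhJ. From Kcnab2 on, all of these differences in PWK/PhJ lay under the 1.5-fold limit on log2(cpm + 1), and Kcnab1 and Kcnk1 were named after their values were seen. With a pseudocount of 0.1 cpm, Kcnq5, a low gene, was higher by 1.11. Kcnk3 was then at -0.71 and Kcnab2 at -0.60, and these genes and Kcnab1 were called, while Kcnh6 and Kcnk1 were not.

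Of 25 genes whose proteins bind or anchor these channels, listed apart from the members, 22 were found and tested. All 22 passed the F-test, as did 97.2% of all genes, and 1 had strain means 2-fold apart, against 11.6% of all genes. That gene was Lrrc55, an auxiliary subunit of the Kcnma1 channel, which was higher in WSB/EiJ (4.21 ± 0.958 cpm) than the mean of the other strains (1.45 cpm), by 1.09 on the log2 scale (q = 4.2e-12). It was also the 1 gene of the list called in a single strain, against 16.2% of all genes. Kcnma1 itself held 175, 212 and 182 cpm in WSB/EiJ, within the values of the other strains. Ank2 and Ank3, which anchor channels to the membrane skeleton, had ranges of 0.31 and 0.49.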

How the data were processed

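Total RNA from retina, for 24 libraries, was depleted of ribosomal RNA and sequenced in pairs by the authors, who aligned reads to GRCm38/mm10 with STAR, counted them per RefSeq gene by expectation maximization in Partek Flow and deposited the normalized counts as cpm. A constant of 1e-04 was present in place of 0. Strains came from the sample labels, with 3 biological replicates each. Here, log2(cpm + 1) of 16400 genes (those averaging 0.5 cpm or more, which is 28.8 to 39.1 reads) was fitted with limma 3.58.1 in R 4.3.3 (F-test over strains, contrasts of each strain with the other 7, q-values after Storey). The method was tested on simulated data in which few genes differed, and only in CAST/EiJ. That setting does not cover data like these, where most genes differ between strains. A count model was not used because the values are not all whole reads. Only 87.2 to 89.4% of low values were whole reads (within 0.02 reads). A fold on this scale understates the change of low genes. Floors cover counting error only. Named genes were those with the widest range in each family, the strongest calls in each strain, the 10 highest in cpm and known retinal channels. Members and lists were chosen with earlier results of these data known. Exons came from GENCODE M21, and 125 of 129 members had the same coordinates there. Of the tested members, 10 had over 10% of their exon bases overlapped by another gene, and at least 50 shared an exact run of 50 bases with one. The other transcripts were read only at steps of 50 bases, so some shared runs could be missed. Other pseudocounts, filters, scalings, adjustments and left-out libraries were tried. Some channel genes of this rule are not reported here.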

Additional observations from a re-analysis of the deposited data

How the results depend on the processing

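The call of each strain rests on 3 libraries and on the 1.5-fold limit, and no difference of a named gene turned sign under any alternative. With a pseudocount of 0.1 cpm, which widens low genes, 19 members had a 2-fold range, and 2 were called in 129S1/Svlmj, 2 in C57BL/6J, 3 in NOD/ShiLtJ, 4 in A/J, 11 in PWK/PhJ, 4 in WSB/EiJ and 6 in NZO/HlLtJ, and in each of these strains Kcnmb3, near 0 there, was among the genes gained. With a mean of at least 5 cpm, which leaves 64 members, 64 differed between strains, 4 had a 2-fold range, and 0 were called in C57BL/6J, 0 in A/J and 1 in NZO/HlLtJ. Median-ratio scaling gave 0 in C57BL/6J and 6 in PWK/PhJ, adding Kcnab2, Kcnk3 and Kcnmb4, and quantile normalization gave 0 in C57BL/6J. The cause was not tested for the scalings. Leaving out 1 library at a time, the counts ran from 96 to 100 for differing genes, 6 to 9 for the 2-fold range, 6 to 8 in CAST/EiJ, 3 to 6 in PWK/PhJ, 0 to 1 in C57BL/6J, and 2 to 3 for NZO/HlLtJ. Scn2b in CAST/EiJ was -0.58 with quantile normalization, under the limit. In 2 alternatives chosen after seeing the data, leaving out the 3 lens-rich libraries gave 0 calls in C57BL/6J and 0 in NOD/ShiLtJ, and leaving out the 4 Xist-rich libraries moved no count by over 1.5 times. No paired analysis was possible because the labels number no replicates across strains. The 29 genes under 0.5 cpm were tested only without the filter on low values, where 129 members entered and the calls in each strain were the same genes.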
